A study of Mus musculus with 4 samples.

Results

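The Ifi200 cluster on mouse chromosome 1 is a row of related genes that interferon switches on. In the authors' deposited list of differential H3K4me3 peaks, 5 of 151 peaks lay in this cluster, within chr1:173700000-174000000 of mm10. The 5 were selected by position, as every listed peak whose start and end fell in this segment, whatever its fold change. They are called peak 1 to peak 5 here, in the order of the chromosome. Peak 1 lay in the pseudogene Ifi203-ps, for which Ifi204 is the nearest protein-coding gene, peaks 2, 3 and 4 lay in Mndal, and peak 5 lay in Ifi211. All 5 were listed as higher after exposure to chlordecone, with fold changes of 1.51 to 1.68.

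Chlordecone (CD) is an organochlorine insecticide with estrogenic activity. Pregnant Swiss mice received CD in olive oil by gavage at 100 µg/kg/day, in 150 µl, over the embryonic days E6.5 to E15.5, and the control group received the same volume of oil alone over the same days. Chromatin carrying trimethylated lysine 4 of histone H3 (H3K4me3) was collected with an antibody from the ovaries of their adult female offspring and sequenced. There were 2 CD samples and 2 control samples, each made from 2 ovaries of different animals, so a sample is a pool of whole ovaries with all their cell types and not of oocytes alone. The list gives 1 value per peak over both groups, the authors' signed fold change, and holds peaks that passed the authors' limits of 1.5 in fold change and 0.1 in false discovery rate. Every peak in it was therefore chosen by the measured difference, and the fold changes below are given as a description with no test. The list holds no value per sample, so the spread between replicates and the depth behind each peak are unknown here. The labelled tissue was not checked against ovarian marker genes, because peaks that did not differ are not in the list.

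The proteins of the Ifi200 family, also called the PYHIN family, usually pair a pyrin domain, through which they bind other proteins, with a HIN domain that binds DNA. Aim2 recognises DNA in the cytosol and assembles the inflammasome, Ifi204 takes part in DNA sensing upstream of the interferon genes, and Ifi202b lacks the pyrin domain and restrains Aim2. The genes arose by repeated duplication and differ in number and sequence between mouse strains, and interferon induces many of them through STAT factors that bind an interferon-stimulated response element (ISRE) before the start site. H3K4me3 is found mainly around the start sites of active genes.

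Because the genes are duplicates, the sequence of each peak is shown with the bases that set it apart from its closest copy in another family gene. Capitals mark bases that differ from that copy or that it lacks, bases present only in the copy are not marked, and all sequences read in the direction of the gene.
peak 1 (Ifi203-ps, against Mndal, chr1:173802147-173802281, minus strand): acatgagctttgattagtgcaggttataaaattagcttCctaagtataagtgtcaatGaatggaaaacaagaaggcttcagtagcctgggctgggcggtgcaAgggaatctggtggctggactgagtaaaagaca
peak 2 (Mndal, against Ifi203, chr1:173878831-173878906, minus strand): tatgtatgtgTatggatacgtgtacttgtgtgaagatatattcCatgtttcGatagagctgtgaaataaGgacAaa
peak 3 (Mndal, against Ifi203, chr1:173878974-173879106, minus strand): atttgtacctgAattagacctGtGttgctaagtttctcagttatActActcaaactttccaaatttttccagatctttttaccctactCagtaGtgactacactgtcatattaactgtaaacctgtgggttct
peak 4 (Mndal, against Ifi203, chr1:173879495-173879609, minus strand): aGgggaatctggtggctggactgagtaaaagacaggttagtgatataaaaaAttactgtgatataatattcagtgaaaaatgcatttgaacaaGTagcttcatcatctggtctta
peak 5 (Ifi211, against Ifi204, chr1:173911325-173911421, minus strand): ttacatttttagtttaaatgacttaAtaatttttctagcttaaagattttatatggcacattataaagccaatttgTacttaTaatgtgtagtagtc
Peak 1 carried 3 such bases in 135, peak 2 carried 5 in 76, peak 3 carried 7 in 133, peak 4 carried 4 in 115 and peak 5 carried 3 in 97. Each peak was thus told apart from its closest copy by 3 to 7 of its bases.

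Peaks 2, 3 and 4 lay in an intron of Mndal, whose protein is nuclear and related to the human MNDA protein. The listed fold change of CD over control was 1.68 at peak 2 (chr1:173878831-173878906, 76 bp), 1.56 at peak 3 (chr1:173878974-173879106, 133 bp) and 1.51 at peak 4 (chr1:173879495-173879609, 115 bp). The 3 peaks spanned 779 bp, with 67 bases between peaks 2 and 3 and 388 between peaks 3 and 4. Peak 4 was closest to the start of the gene and had the lowest fold change of the 5, only 0.0096 above the limit of 1.5. Measured from the outermost RefSeq start at position 173880382, peak 4 began 773 bp into the gene, peak 3 began 1276 bp in and peak 2 began 1476 bp in. The nearest exon towards the start was 316 bp from peak 4, so none of the 3 touched an exon. GENCODE places the nearest start of a Mndal transcript at 173880111, closer to the peaks, at 502 bp from peak 4, 1005 bp from peak 3 and 1205 bp from peak 2.

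Peak 5 (chr1:173911325-173911421, 97 bp) lay in an intron of Ifi211, a gene formerly named Mnda that encodes a family member with both domains, and its listed fold change was 1.65. It began 1666 bp into the gene from the RefSeq start at 173913087, and the nearest exon towards the start was 1393 bp away. Of the 5 peaks it was the farthest from the start of its gene by RefSeq, whereas by GENCODE peak 1 was farther. In GENCODE 1 transcript of Mndal begins at 173942491, within the span of Ifi203, so that peak 5 also lies within the span of Mndal there.

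Peak 1 (chr1:173802147-173802281, 135 bp) was the widest of the 5, with a listed fold change of 1.58. RefSeq extends the pseudogene Ifi203-ps to position 173802755, which puts peak 1 in its intron, 474 to 608 bp from the start and 215 bp from the nearest exon. In GENCODE the pseudogene ends 3877 bp short of the peak, and peak 1 is in no gene. The nearest start of a protein-coding transcript was that of Ifi204, at a distance of 35228 bp. Ifi204 itself held no listed peak, and its name is tied to peak 1 by that distance alone.

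**Figure D1:**
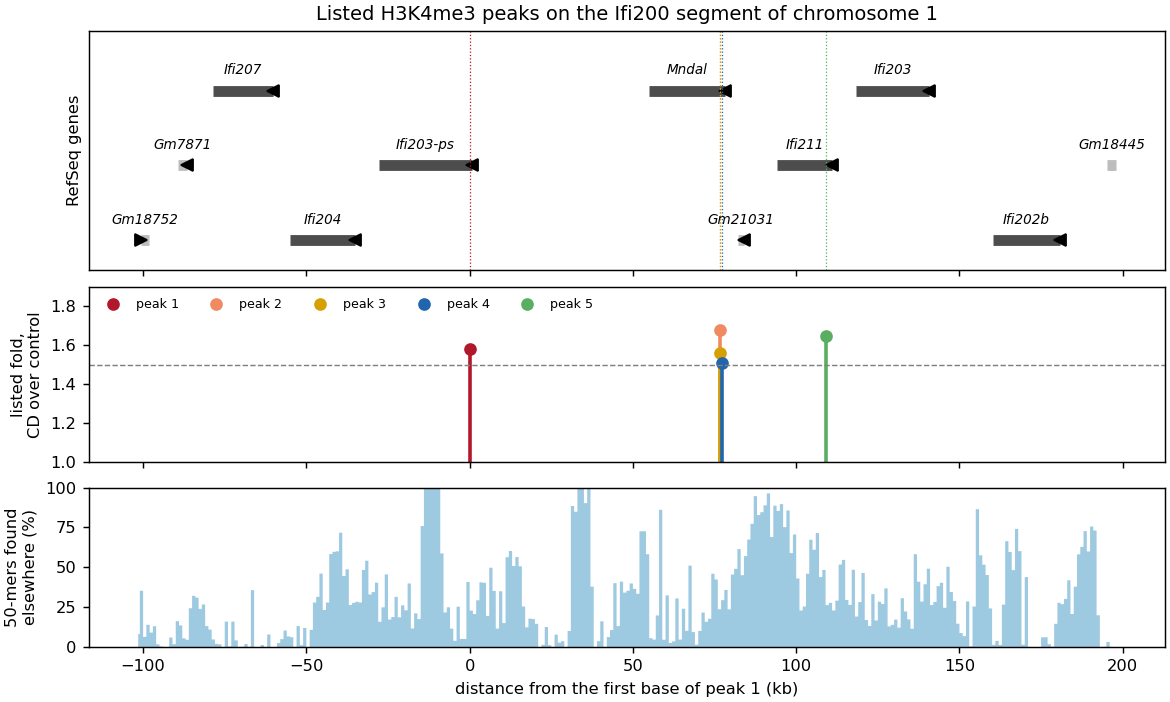
Map of the segment of chromosome 1, with distance from the first base of peak 1 in kb on the horizontal axis. Bars in the top panel are RefSeq genes (dark for the Ifi200 family, light for pseudogenes outside it) with arrowheads at their starts, points in the middle panel are the listed fold changes of CD over control with a dashed line at 1.5, and the bottom panel gives the percentage of 50-mers in each 1-kb bin that occur again elsewhere in the genome. The 5 peaks sit just inside the starts of Ifi203-ps, Mndal and Ifi211, between 1.51 and 1.68.

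The direction was the same at all 5 peaks, but this was the direction of most of the list, since 135 of 151 peaks (89.4%) were higher in CD. The median listed fold change was 1.58 for the 5 peaks and 1.88 for all 151 by size, and 1.82 for the 135 that were higher. Ranked by size among all 151, peak 2 was number 96, peak 5 number 106, peak 1 number 123, peak 3 number 129 and peak 4 number 149. The cluster thus lay in the lower part of the list, and 82 of the higher peaks exceeded all 5 of its values while 2 fell below them. None of the 5 reached a fold change of 2, which was also true of 92 of the 151 peaks.

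**Figure D2:**
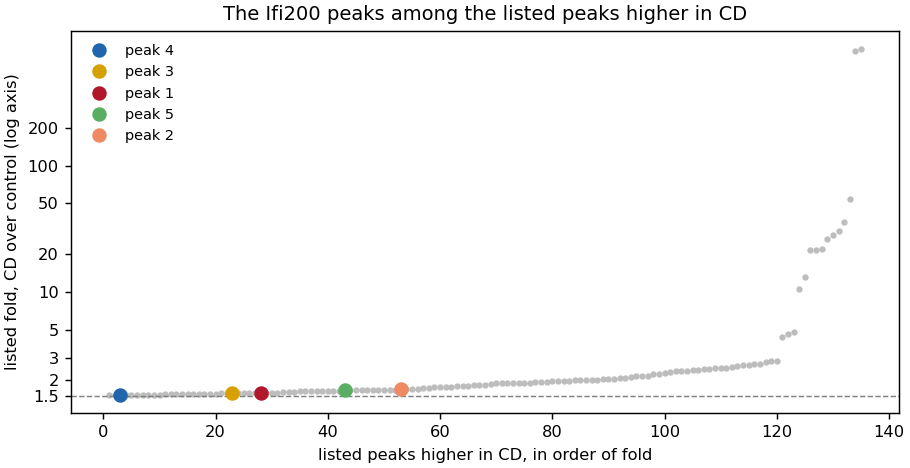
Listed fold changes of CD over control (log axis) for the 135 peaks higher in CD, in ascending order, with the Ifi200 peaks in colour and the others in grey. The dashed line is the authors' limit of 1.5, and the 5 peaks lie between 1.51 and 1.68, at the low end of the list.

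The peaks were also short. Their widths ran from 76 to 135 bp with a median of 115 bp, against a median of 143 bp and a range of 72 to 2470 bp for the other 146 peaks. Narrow peaks were common in the list, however, and 72 of the other 146 were no wider than peak 1.

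When peaks at most 10 kb apart were joined, the 5 peaks formed 3 loci, out of 121 loci for the whole list. The Mndal locus was 1 of 6 loci with 3 or more listed peaks, and its median fold change of 1.56 was the lowest of those 6. Between peak 1 and the Mndal locus lay 76549 bases, and between that locus and peak 5 lay 31715. From the first base of peak 1 to the last of peak 5 the chromosome ran 109275 bp. Outside the segment the nearest listed peak was at chr1:170255097-170255176, 3546970 bases before peak 1, with a fold change of 1.62, and no listed peak followed the cluster on chromosome 1. The limits of the segment did not decide which peaks belonged, as peak 1 lay 102146 bases inside the lower limit and peak 5 lay 88579 bases inside the upper one. Chromosome 1 held 9 listed peaks in all, each higher in CD, with a median of 1.62.

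H3K4me3 usually peaks close to start sites, and 78 of the 151 listed peaks (51.7%) lay within 1 kb of the start of an annotated transcript. In the Ifi200 cluster this held for 1 of 5, peak 4. Measured to RefSeq gene starts it held for 2 of 5, peaks 1 and 4, against 39.7% of the list. Within 250 bp of any transcript start there were 0 of 5 against 31.8%, and within 5 kb there were 5 of 5 against 65.6%. By the RefSeq starts, the peaks of the cluster thus lay inside their genes, near the starts and without covering them, while GENCODE places peak 1 outside any gene.

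The base composition of the peaks was AT-rich. The GC content was 43.7% in peak 1, 34.2% in peak 2, 35.3% in peak 3, 34.8% in peak 4 and 22.7% in peak 5, and the median of 34.8% compares with 52.7% for the other listed peaks. Peak 5 had the lowest GC content of all 151. There was 1 CpG dinucleotide in peak 1 and there were 2 in peak 2, while peaks 3, 4 and 5 had none, as did 17 of the other 146 peaks. Repeat masking covered at most 25% of a peak (peak 2) and none of peak 4, so that the peaks were not interspersed repeats for the greater part of their length.

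The duplicate genes carried close copies of all 5 peaks. With 250 bp added on both sides, each peak had at least 1 copy in the genome at 90% identity or more over at least 80% of the window. There were 9 such copies, all on the same strand of the same segment and within the first 2 kb of another family gene, and 0 elsewhere in the genome. The 9 are counted per peak and are not separate stretches. The copies in Ifi203 run into each other, and so do those in Ifi203-ps. The window of peak 1 matched Mndal at 97% and Ifi203 at 96.7%. That of peak 4 matched Ifi203-ps at 96.9% and Ifi203 at 96.9%. Ifi203-ps, Mndal and Ifi203 thus share this stretch behind their starts, and the copies of peaks 2 and 3 followed the same pattern, in Ifi203 at 95.2% and 94.2% and in Ifi203-ps at 94.5% and 94.1%. Peak 5 belonged to another pair, with its copy in Ifi204 at 97.3%.

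Within the peaks alone the copies differed at few bases. In Mndal, 132 of the 135 bases of peak 1 were the same (97.8%), and in Ifi203 131 were. For peak 4, 111 of 115 bases were the same in Ifi203 and 110 in Ifi203-ps. Peaks 2 and 3 were less alike to their copies, with 71 of 76 bases the same and 126 of 133 the same, in each of Ifi203 and Ifi203-ps. For peak 5, 94 of 97 bases were the same in Ifi204. More distant versions of peak 5 occurred in Ifi207 at 85.7% and in Ifi205 at 79.6% identity, so that the sequence is found behind the start of 4 family genes. Part of peak 4, 66 of its 115 bases, also aligned in Ifi214 at 70.4% identity, 607 to 676 bp into that gene.

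Measured from the outermost RefSeq start, the place of the copies was close to that of the peak for peak 5 and shifted for the others. These distances depend on where RefSeq sets that start. The ISRE core, which lies in a stretch identical in Mndal and Ifi203, began 159 bp into Mndal and 339 bp into Ifi203 by the same measure. The shift between these genes is therefore not read as a different place of the sequence. The copy of peak 5 in Ifi204 lay 1652 to 1749 bp into the gene, against 1666 to 1762 bp for peak 5 in Ifi211. Peak 1 lay 474 to 608 bp into Ifi203-ps and its copy in Ifi203 lay 851 to 984 bp in. The copy of peak 1 in Mndal lay 672 to 806 bp in and overlapped peak 4 by 34 bases, and in the same way the copy of peak 4 in Ifi203-ps overlapped peak 1 by 34 bases. Peaks 1 and 4 are therefore neighbouring and partly matching pieces of the same duplicated sequence, listed at 1.58 in one gene and at 1.51 in the other. The remaining 7 of the 9 copies, in Ifi203, Ifi203-ps and Ifi204, overlapped no listed peak. Ifi203 holds a copy of each of peaks 1 to 4, and its nearest listed peak was 31039 bp from its start. Since the list holds differential peaks alone, H3K4me3 at these copies is not known from it.

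**Figure D3:**
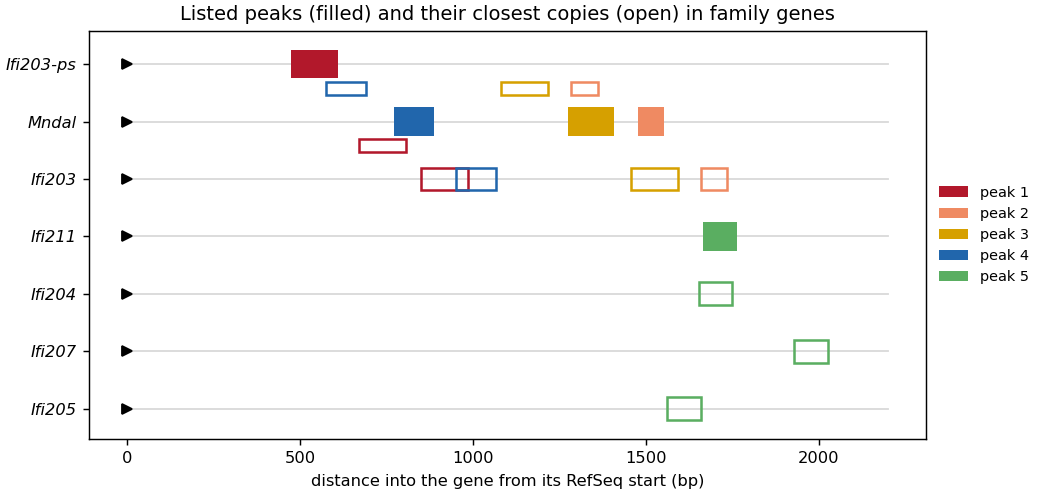
Position of the listed peaks (filled bars) and of their closest copies (open bars) in 7 family genes, as distance in bp from the RefSeq start of each gene (arrowheads). Copies of peaks 1 to 4 occur in Ifi203-ps, Mndal and Ifi203 in the same order. Their distance from the RefSeq start increases in that order of genes and depends on where RefSeq sets the start. Copies of peak 5 occur in Ifi204, Ifi207 and Ifi205. The copies of peaks 1 and 4 overlap the other listed peak by 34 bases.

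The authors' reads were 50 bases long, so a read can be placed with certainty only where its 50 bases occur once in the genome. In the segment as a whole, 31.1% of 299951 50-mers had another exact match. Inside the 5 peaks none of 311 50-mers did, whereas 74 of the other 146 listed peaks held at least 1 repeated 50-mer. In the 250 bp on both sides the repeated 50-mers came back, and with these flanks included their share was 35.5% for peak 1, 20.9% for peak 2, 7.02% for peak 3, 21% for peak 4 and 27.2% for peak 5. The peaks were thus stretches of unique 50-mers within partly repeated surroundings. The other listed peaks also held fewer repeated 50-mers at the centre, with 10.1% repeated 50-mers within 25 bp of the centre and 40.9% at 100 to 600 bp from it, against 0% and 36.1% for the Ifi200 peaks. How reads with several matches were treated is not given in the sources used here, and the part of read placement in the listed fold changes was not tested.

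**Figure D4:**
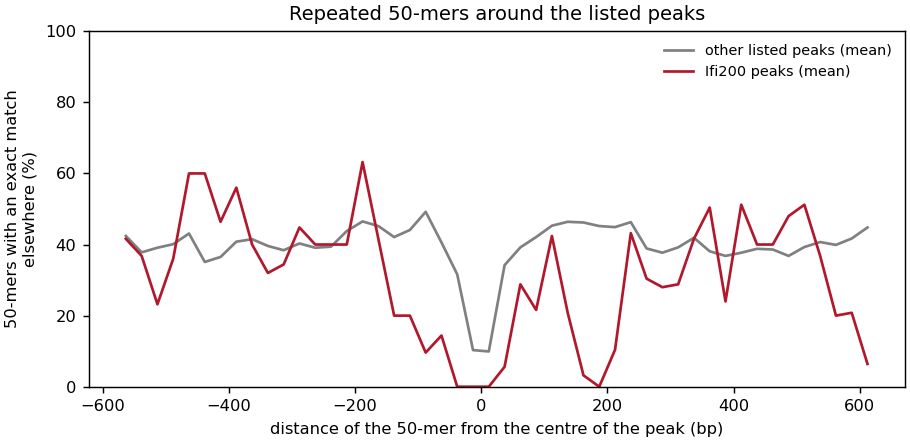
Percentage of 50-mers with an exact match elsewhere in the genome against distance from the centre of the peak in bp, as the mean of the 5 Ifi200 peaks (red) and of the other 146 listed peaks (grey). Within 25 bp of the centre the red line is at 0% and the grey line averages 10.1%. In the flanks the grey line stays near 40%, while the red line, a mean of only 5 peaks, swings between 0% at 187 bp after the centre and 63.2% at 188 bp before it.

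The uniqueness rested on few bases. With 1 mismatch allowed, 58.1% of the 50-mers inside peak 1 and 45.5% of those inside peak 4 had a match elsewhere. At peak 2 the share was 7.41%, at peak 5 it was 2.08%, and at peak 3 it was 0%. With up to 2 mismatches it reached 100% at peak 1, 44.4% at peak 2, 17.9% at peak 3, 47.0% at peak 4 and 8.33% at peak 5. The median over the 5 peaks was 44.4%, against a median of 69.7% for the other listed peaks. With up to 3 mismatches the share was 100% at peak 1, 88.9% at peak 2, 25% at peak 3, 48.5% at peak 4 and 12.5% at peak 5. Among 50-mers wholly inside the peaks, peak 1 was thus the least distinct at each of these limits and peak 5 the most distinct at 2 and 3 mismatches, while the order of peaks 2 and 4 changed with the limit. Among 50-mers that touch a peak at any base the order differed, and exact matches elsewhere were most frequent at peak 5, with 21.9% against 9.24% at peak 1, 6.04% at peak 3, 0.61% at peak 4 and 0% at peak 2. This search allows no gaps, which lowers the shares where a copy is aligned with gaps. The alignments had 4 gap bases for peak 3 in both of its copies, 1 for peak 4 in both of its copies, 1 for peak 5 in Ifi204, and 1 for peaks 1 and 2 in Ifi203 but none in Mndal and Ifi203-ps. The matches up to 3 mismatches all lay in the cluster, those of peak 1 in Mndal and Ifi203, those of peaks 2, 3 and 4 in Ifi203 and Ifi203-ps, and those of peak 5 in Ifi204. The mice were Swiss, whereas the reference genome is that of C57BL/6J, so the number of copies and the distinguishing bases in these animals may differ from those shown, which was not tested.

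**Figure D5:**
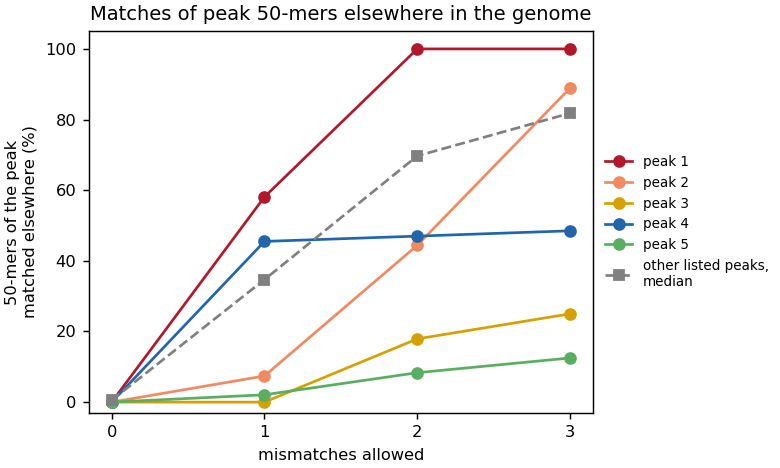
Percentage of the 50-mers inside each Ifi200 peak that match elsewhere in the genome with 0, 1, 2 or 3 mismatches allowed (coloured lines), with the median of the other 146 listed peaks (grey dashes). All 5 peaks start at 0%, peak 1 reaches 100% at 2 mismatches and peak 5 stays at 12.5% at 3.

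Most promoters of the family held the letters of the element through which interferon acts. The core of the ISRE, GAAANNGAA on either strand, was found in the promoter windows (250 bases before to 50 after a start, RefSeq, GRCm38.p6) of 9 of the 12 family genes that had a window. By windows it was in 10 of the 14 of the family and in 8.56% of all 32851. The family windows come from duplicated genes, and those of Mndal overlap each other, as do those of Ifi203. The matches are therefore not independent of each other. The 9 were Ifi203, Ifi205, Ifi206, Ifi207, Ifi208, Ifi211, Ifi213, Ifi214 and Mndal, and the windows of Aim2, Ifi209 and Ifi202b held no match. Ifi204 and Ifi203-ps had no window. The stretches are shown for Mndal and Ifi211, which had both a listed peak and a window, and for 3 relatives, with the 9-letter match in capitals.
Mndal (chr1:173880204-173880233, minus strand): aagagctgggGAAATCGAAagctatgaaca
Ifi203 (chr1:173942508-173942537, minus strand): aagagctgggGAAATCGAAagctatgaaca
Ifi211 (chr1:173913064-173913093, minus strand): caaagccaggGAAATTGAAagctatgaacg
Ifi205 (chr1:174031870-174031899, minus strand): ccaggccaggGAAATTGAAagctatgaaca
Ifi207 (chr1:173741831-173741860, minus strand): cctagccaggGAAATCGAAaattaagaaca
The stretch of Mndal and that of Ifi203 were the same at 30 of 30 bases. The letters AGC followed the match in 8 of the 9 genes, and on the strand of the gene it ended 26 to 125 bases before the start used for its window. RefSeq gives some of these genes an outer start as well, and measured from the outermost one the match lay inside the gene in 4 of the 9. It began 159 bp into Mndal, 4 bp into Ifi211, 339 bp into Ifi203 and 3 bp into Ifi213, and in the other 5 it lay before the start. In Mndal and Ifi211 the listed peaks did not reach the element. The stretch in Mndal lay 594 bases from peak 4, and that in Ifi211 lay 1642 bases from peak 5. Mndal had a further match on the opposite strand, in the window of its other start, and the stretch around it (chr1:173879992-173880021) lay 382 bases from peak 4. Ifi205 also had a further match on the opposite strand, in the window that held its other match.

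Inside the 5 peaks the ISRE core was not found, while 16 of the 151 listed peaks (10.6%) held it. The 5 peaks are few and short, with 556 bp in all against 53078 bp for the list. Its absence from them is therefore not read as a lack. The gamma-activated site, TTCNNNGAA, through which interferon gamma acts, reads the same on both strands and can share its letters GAA with the ISRE core. It occurred in peak 4 alone of the 5, in 9.27% of listed peaks and in 8.30% of all promoter windows. Among the family promoters it occurred in Ifi202b alone. A match is a run of letters and not a site shown to be bound.

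The rest of the family had no listed peak at its starts. The family list held 14 genes over 680932 bp, of which 13 are protein-coding, and 7 of the 14, all on the minus strand, overlapped the segment. Mndal and Ifi211 were the 2 of 13 coding genes with a listed peak within 10 kb of a start, both higher in CD, where 0.333% of all 21943 protein-coding genes had one. Measured to the nearest coding transcript, Ifi203 was 31039 bp from a listed peak and Ifi204 35228 bp. Ifi207 was 60400 bp away, Ifi202b 71323 bp, Ifi205 120334 bp and Ifi208 124461 bp. The genes toward the lower end of the cluster were farther still, from 171230 bp for Ifi209, 202873 bp for Ifi213, 266190 bp for Ifi214 and 311106 bp for Ifi206 to 346793 bp for Aim2. Listed peaks were thus limited to the part of the cluster from Ifi203-ps to Ifi211, and the family as a whole was not listed.

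Outside the family, 3 of 128 protein-coding genes of the interferon pathway had a listed peak within 10 kb of a start, and all 3 were interferon-stimulated genes. Of 16 ligands and receptors, 16 signalling genes and 28 genes of nucleic acid sensing and the inflammasome, 0 had a listed peak within 10 kb. Of 68 protein-coding interferon-stimulated genes outside the family, 3 had one, all higher in CD. These were Samd9l, an inhibitor of virus replication, and the neighbouring Slfn8 and Slfn9 of the Schlafen family, whose members restrain cell growth and virus replication. The lists were drawn up with earlier results of these data known, so nothing is read from these counts against the 0.333% of all coding genes. A further 3 interferon-stimulated genes of the list, Mx2, Oas1b and Cxcl11, have no protein-coding transcript in the annotation used and were not counted. Of these, Mx2, whose protein is known to restrict viruses, had a start 326 bp from a listed peak with a fold change of 1.97, and the other two had none within 10 kb. The gene products were not measured in these samples. The list gives the authors' fold changes in H3K4me3 at peaks in Ifi203-ps (by RefSeq), Mndal and Ifi211, and no level of RNA or protein.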

How the data were processed

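Single-end 50-bp reads were aligned by the authors to mm10 (Bowtie 1.0.0, seed length 40). Peaks were called with MACS2 2.1.1 and compared between CD and control in limma, per the study's methods and the submitters' processing notes. The normalization behind the fold change and the depth per sample are not given in the sources used here. The deposited file holds 151 peaks with a score, the authors' signed fold change of CD over control (negative where lower). It is their own comparison and was used because it defines the peaks. No sample has a value in it, and no test was possible.

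Positions are those of mm10 (GRCm38.p6), given from 1, with GENCODE M21 and RefSeq genes. Distances to start sites were taken from the nearer end of each peak. The 50-mers were searched on both strands of 66 sequences of the assembly, exactly and with up to 3 mismatches, and copies were aligned with BLAST+ 2.17.0. The search was tested on simulated data with copies planted at 0 to 4 mismatches, and its answer was right for 200 of 200. For copies with 4 mismatches, beyond the limit of 3, the right answer was no match. Promoters came from RefSeq windows. Python 3.11.15, NumPy 2.4.6 and Numba 0.67.0 were used. Alternatives changed segment, joining distance, start sites, 50-mer settings, identity limits, gene distance and motif.

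The peaks and gene lists were chosen with earlier results of these data known. Genes named are those over or nearest to a peak, the family list, holders of copies, and genes of the other lists with a listed peak within 10 kb. Genes of the lists without a protein-coding transcript were not counted, and Oas1b and Cxcl11 are named only to say so.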

Additional observations from a re-analysis of the deposited data

How the results depend on the processing

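Of 30 alternatives to 9 results, 17 left the value within 1.5 times or within the spread over the peaks. The 5 peaks remained 5 when the segment was widened by 1 Mb and over the span of the family genes, and their median fold change stayed between 1.58 and 1.61. Joining peaks at 1 Mb gave 1 locus in place of 3. The number of peaks near a start site was 1 at 1 kb, 0 at 250 bp, 5 at 5 kb, 0 for the outermost start of each gene and 2 for RefSeq starts. The share of 50-mers matched elsewhere was 0% inside the peaks and rose to 22.3% with 250 bp on both sides, 7.62% for 50-mers touching the peaks, 15.2% for 36-mers, and 26.7%, 47.6% and 54.3% with 1, 2 and 3 mismatches. Copies numbered 6 at 95% identity, where peak 3 had none, and 11 at 80% identity over 50% of the window, against 9. Protein-coding pathway genes, family included, with a listed peak numbered 3 within 1 kb and 9 within 50 kb, against 5 within 10 kb, and all 9 were at peaks higher in CD. No paired analysis was possible because the list holds no value per sample, and for the same reason no replicate could be left out.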
